A study of Mus musculus with 16 samples.

Results

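The genes examined here are 10 markers of Kupffer cells, the resident macrophages of the liver, out of 30142 named genes on the arrays. They are Csf1r, Adgre1, Clec4f, Vsig4, Cd5l, Marco, Timd4, C1qa, C1qb and C1qc, chosen by gene symbol. Each gene was represented by the probe set with the highest mean over the 16 arrays, and each had only 1 probe set that carried its symbol alone. Total RNA of whole mouse liver was measured on Affymetrix microarrays, 4 arrays in each of 4 groups. The groups were Ppara fl/fl mice after a sham operation, Ppara fl/fl mice after partial hepatectomy (PHx, the surgical removal of part of the liver), PparaΔHep mice after sham and PparaΔHep mice after PHx. All livers were taken at 12 h after the operation. Ppara encodes PPARα, a receptor for fatty acids in the cell nucleus. The fl/fl mice carry Ppara flanked by recombination sites and stand for wild type, while PparaΔHep mice lack a working Ppara gene in hepatocytes alone, per the labels. Neither the promoter that drove the recombinase nor the age or sex of the mice is given in the sources used here. By this design the disruption lies in hepatocytes, while the 10 genes are markers of another cell type. Each title carries a number of its own, shared with no other array, and the labels do not say whether it marks a mouse, so p-values cover the spread among these arrays, some of which may be technical.

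Kupffer cells sit inside the liver sinusoids, where they clear bacteria, dead cells and worn blood cells from the portal blood. Their survival depends on signalling through the CSF1 receptor, and neighbouring endothelial and stellate cells and hepatocytes provide the signals that keep their identity. After partial hepatectomy they are known as a source of cytokines that prime hepatocytes for division. Marker genes of resident Kupffer cells include receptors for complement, for glycans and for dying cells, and secreted proteins of innate immunity such as the C1q chains. In RNA from whole liver, fewer cells of a type and less RNA per cell cannot be told apart.

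Levels are RMA values on the log2 scale, and differences between groups are log2 differences, so that a difference of 1 is a doubling or a halving. Levels of different probe sets cannot be set against each other, so only levels of 1 gene across arrays, and differences, are compared. The mean of each of the 10 genes over the 16 arrays lay between 3.89 and 6.33. The median of the antigenomic background probe sets, which match no mouse sequence, was 1.24 ± 0.03 on sham and 1.01 ± 0.04 on PHx arrays (SD, n = 8 each), so that all 10 were measured above it.

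RefSeq promoter sequences (mouse build GRCm38.p6) were at hand for 7 of the 10 genes. They were searched on both strands, over the 250 bases before the transcription start, for GAGGAA, a core sequence of the myeloid factor PU.1, and for TGCTGA, a half-site of MAF factors. The motifs did not overlap in any of them. GAGGAA was found in 5 of the 7 and TGCTGA in 4 of the 7, against 23.3% and 16.1% of all 32851 promoters in that table. Promoters are shown for Cd5l, which had the largest difference after PHx, and for Vsig4 and Clec4f, 2 surface receptors. Each runs 5′ to 3′ in the direction of the gene, and capitals mark GAGGAA or its reverse complement TTCCTC.
Cd5l, chr3:87357631-87357880, plus strand: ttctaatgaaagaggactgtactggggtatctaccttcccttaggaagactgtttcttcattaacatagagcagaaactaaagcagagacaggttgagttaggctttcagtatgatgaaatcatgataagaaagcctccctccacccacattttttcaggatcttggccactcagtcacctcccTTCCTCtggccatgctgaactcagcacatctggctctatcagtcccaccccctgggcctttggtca
Vsig4, chrX:96293439-96293688, minus strand: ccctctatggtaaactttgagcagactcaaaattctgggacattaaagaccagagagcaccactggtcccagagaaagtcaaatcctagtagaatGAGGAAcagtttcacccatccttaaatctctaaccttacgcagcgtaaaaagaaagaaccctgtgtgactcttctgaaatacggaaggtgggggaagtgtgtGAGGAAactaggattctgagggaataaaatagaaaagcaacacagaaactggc
Clec4f, chr6:83656117-83656366, minus strand: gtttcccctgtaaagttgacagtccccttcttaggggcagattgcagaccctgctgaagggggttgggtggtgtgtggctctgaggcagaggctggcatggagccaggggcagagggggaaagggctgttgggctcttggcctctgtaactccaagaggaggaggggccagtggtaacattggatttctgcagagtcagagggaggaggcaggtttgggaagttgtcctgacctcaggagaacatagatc
Vsig4 held 2 matches to GAGGAA, the nearer 48 bases before the start, and Cd5l held 1, at 61 bases. Clec4f held none within this window and had a TGCTGA match at 194 bases before the start. Cd5l held 2 matches to TGCTGA, which are not capitalised. A match is a description of letters and does not show binding.

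The disrupted gene was examined first. Ppara stood at 6.05 to 6.43 on sham PparaΔHep arrays against 6.45 to 7.02 on sham fl/fl arrays, and at 4.70 to 6.26 against 5.68 to 7.24 after PHx. Neither genotype difference passed (limma, adjusted p = 0.681 after sham and 0.326 after PHx), and since the probe set may match exons that were not deleted, it is no check of the labels. Array medians over all probe sets were 2.05 ± 0.02 for sham and 2.17 ± 0.02 for PHx, and the median of chromosome Y probe sets was 1.81 ± 0.06 against 5.19 ± 0.16 (SD, n = 8 each). Averaged over genotypes, the named chromosome Y genes Kdm5d, Eif2s3y and Uty differed by -0.34, -0.28 and -0.14 after PHx (limma adjusted p up to 0.0085). They went the other way from the chromosome Y median. In array median, chromosome Y median and antigenomic background, no PHx array overlapped the sham arrays. In every PHx comparison such a difference between sets of arrays cannot be told apart from the operation. Its part in the results was not tested. No pair of arrays held identical values.

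Most of the 10 markers had lower levels after PHx than after sham, and Csf1r, Adgre1, Cd5l and C1qa fell in both genotypes. Clec4f, Vsig4, Timd4 and C1qc were called lower in PparaΔHep livers. A gene was called where its adjusted p (limma, Benjamini-Hochberg over all named genes) was under 0.05. In fl/fl livers 4 of the 10 were called lower and 0 higher, where 20.8% of all named genes were called lower and 11.9% higher. In PparaΔHep livers 8 of the 10 were called lower and 0 higher, where 17.5% of all genes were called lower and 14.8% higher. Among the 11343 genes with a mean level of at least 3.5, which include all 10 markers, the share called lower was larger, at 35.7% in fl/fl and 37.1% in PparaΔHep livers. Against these shares the fl/fl count lay near its background and the PparaΔHep count above it. The median difference of the 10 genes was -0.33 in fl/fl and -0.55 in PparaΔHep livers. It was -0.15 and -0.16 among genes with a mean level of at least 3.5, and -0.04 and 0.01 over all named genes. The medians of the 10 genes were -0.20 and -0.43 after quantile normalization and -0.16 and -0.40 after cyclic loess. Those of the genes with a mean level of at least 3.5 were then -0.04 and -0.04 after quantile normalization and 7.69e-04 and -0.0042 after cyclic loess. In each genotype 9 of the 10 differences were below 0, Marco being the exception. Averaged over the genotypes, 8 of the 10 were called lower, and 0 higher, where 26.6% and 19.3% of all genes were, and 49.4% and 10.5% of those with a mean level of at least 3.5, with Marco and C1qb not called.

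Those counts moved with single arrays and with the scaling. The fl/fl count was 2 in 3 fits, those without array 2 of the sham group, array 3 of the sham group or array 3 of the PHx group of that genotype. The PparaΔHep count was 3 without sham PparaΔHep array 1, 4 without sham PparaΔHep array 3, 5 without PHx PparaΔHep array 2 and 4 without PHx PparaΔHep array 4. After cyclic loess normalization it was 2 in fl/fl and 4 in PparaΔHep livers, and after quantile normalization it was 3 and 5. Of the 11343 genes with a mean level of at least 3.5, 1707 in fl/fl and 2025 in PparaΔHep livers were then called lower after cyclic loess, fewer than the 4051 and 4211 on the deposited values, and after quantile normalization 21.0% and 21.7% were. Csf1r and Adgre1 remained called lower in both genotypes under each of these changes.

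**Figure D1:**
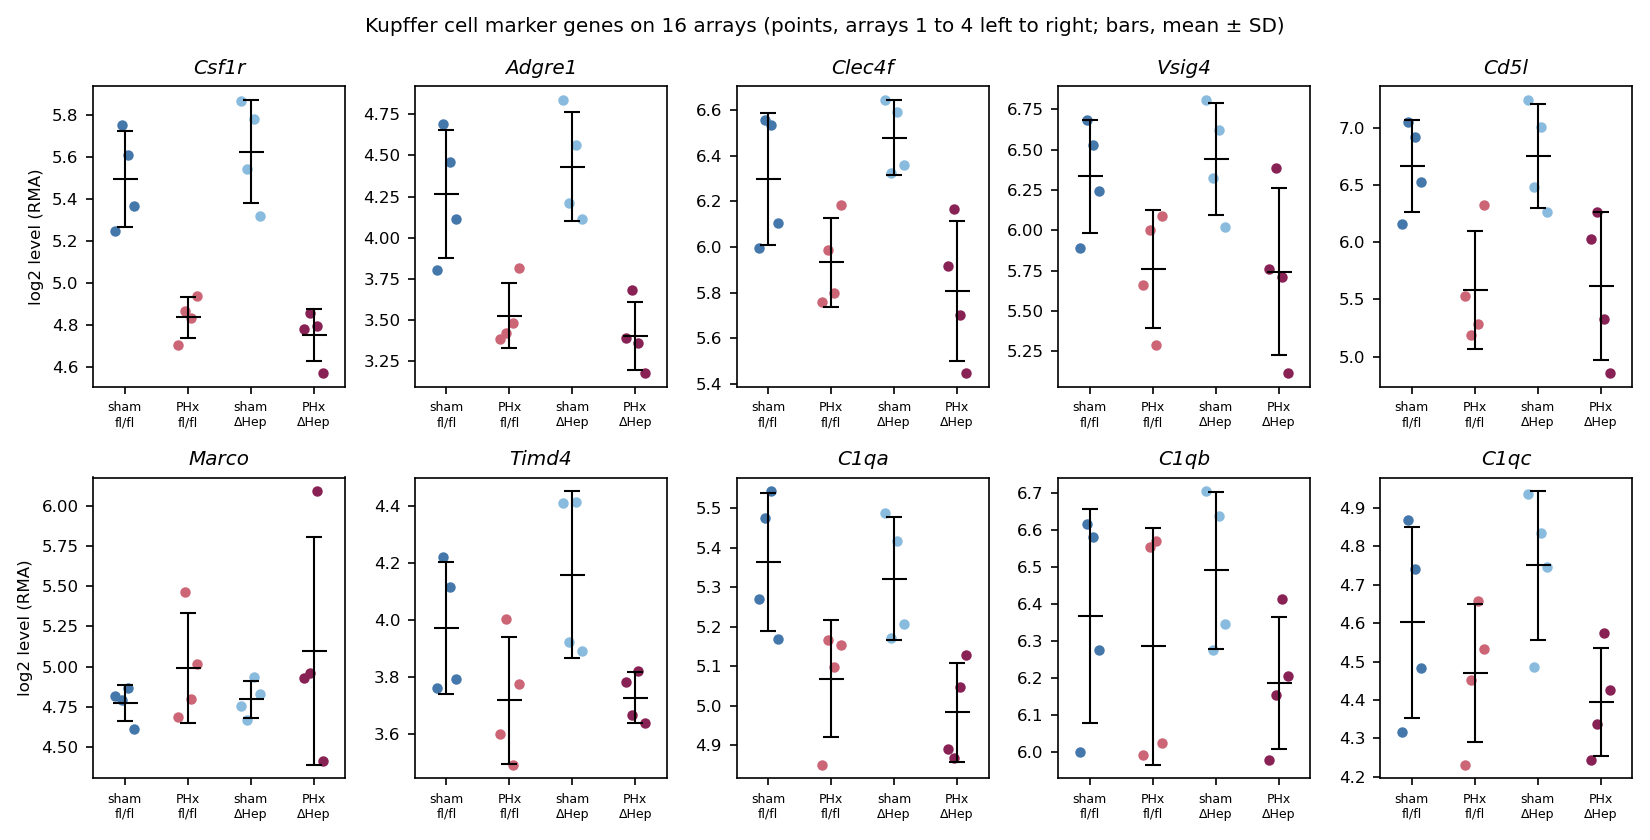
Level of each Kupffer cell marker gene (y axis, log2 RMA value, own scale for each gene) on every array of the 4 groups (x axis, ΔHep stands for PparaΔHep); points are arrays and bars the mean ± SD of 4 arrays. Csf1r and C1qa are the genes whose 8 PHx arrays all lie below their 8 sham arrays, C1qa narrowly (highest PHx array 5.167, lowest sham array 5.169). The share of all genes that separate in this way over 8 against 8 arrays was not computed.

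Csf1r encodes the receptor on which macrophage survival depends. Its levels on sham fl/fl arrays 1 to 4 were 5.25, 5.75, 5.61 and 5.37, and those on PHx fl/fl arrays were 4.71, 4.87, 4.84 and 4.94. On sham PparaΔHep arrays they were 5.87, 5.54, 5.78 and 5.32, and on PHx PparaΔHep arrays 4.78, 4.86, 4.80 and 4.57. Every PHx array lay below every sham array, across genotypes as well, but the share of all genes that separate across genotypes was not computed. The difference was -0.66 ± 0.12 in fl/fl (SE, n = 4 against 4; limma adjusted p = 9.85e-04) and -0.88 ± 0.12 in PparaΔHep livers (adjusted p = 8.27e-05). Groups that did not overlap, with PHx lower, were found for 19.9% of all named genes in fl/fl and for 16.2% in PparaΔHep livers (with PHx higher, for 12.0% and 15.8%). Among the 10 markers that was so for 2 in fl/fl (Csf1r and C1qa) and for 6 in PparaΔHep livers (those and Adgre1, Clec4f, Cd5l and Timd4).

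Adgre1 encodes an adhesion receptor that is widely used as a surface marker of mouse macrophages. Sham fl/fl arrays read 3.80, 4.69, 4.46 and 4.11, and PHx fl/fl arrays 3.38, 3.42, 3.48 and 3.81. Sham PparaΔHep arrays read 4.84, 4.21, 4.56 and 4.11, and PHx PparaΔHep arrays 3.39, 3.68, 3.36 and 3.18. In fl/fl the groups touched, since PHx array 4 lay just above sham array 1, while in PparaΔHep livers they were apart. Adgre1 fell by 0.74 ± 0.19 in fl/fl (SE; limma adjusted p = 0.0082) and by 1.03 ± 0.19 in PparaΔHep livers (adjusted p = 8.45e-04). With Csf1r it kept its call in all 16 fits that each left out 1 array, with log2 differences from -0.90 to -0.60 in fl/fl and from -1.14 to -0.89 in PparaΔHep livers.

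Clec4f, a lectin that in mice marks Kupffer cells, stood at 6.00, 6.56, 6.53 and 6.11 on sham fl/fl and at 5.76, 5.99, 5.80 and 6.18 on PHx fl/fl arrays. In PparaΔHep livers it stood at 6.64, 6.32, 6.59 and 6.36 after sham and at 5.92, 6.17, 5.70 and 5.45 after PHx. The fl/fl groups overlapped through PHx array 4, and the PparaΔHep groups did not overlap. The fl/fl difference of -0.37 ± 0.16 was not called (limma adjusted p = 0.0916), except without sham fl/fl array 1, the lowest sham array (-0.47, adjusted p = 0.0468). In PparaΔHep livers Clec4f fell by 0.67 ± 0.16 (adjusted p = 0.0050).

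Vsig4 encodes a complement receptor with which Kupffer cells catch bacteria from the blood. It ranged from 5.89 to 6.69 on sham fl/fl, from 5.29 to 6.09 on PHx fl/fl, from 6.02 to 6.81 on sham PparaΔHep and from 5.11 to 6.39 on PHx PparaΔHep arrays. Sham and PHx arrays overlapped in both genotypes. Its differences were -0.58 ± 0.26 in fl/fl (SE; limma adjusted p = 0.0997) and -0.70 ± 0.26 in PparaΔHep livers (adjusted p = 0.0493). The latter call sits at the threshold and was kept in only 4 of the 16 fits that each left out 1 array, those without array 1 of sham fl/fl, 3 of PHx fl/fl, 4 of sham PparaΔHep or 2 of PHx PparaΔHep. Over the 16 fits its difference ran from -0.91 to -0.49 and its adjusted p from 0.0113 to 0.163.

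Timd4, a receptor for phosphatidylserine on dying cells, ranged from 3.76 to 4.22 on sham fl/fl and from 3.49 to 4.004 on PHx fl/fl arrays, with overlap. In PparaΔHep livers it stood at 4.41, 3.92, 4.42 and 3.89 after sham and at 3.78, 3.67, 3.82 and 3.64 after PHx. Sham arrays 1 and 3 thus stood well above arrays 2 and 4, which lay close to the PHx arrays. The difference was -0.26 ± 0.14 in fl/fl (limma adjusted p = 0.192) and -0.43 ± 0.14 in PparaΔHep livers (adjusted p = 0.0323). The call was lost without sham PparaΔHep array 1 or 3 or PHx PparaΔHep array 2 or 4, with differences of -0.41 to -0.35 and adjusted p up to 0.105, and also under cyclic loess (adjusted p = 0.106) and with array weights (adjusted p = 0.0522).

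Cd5l encodes a secreted protein of tissue macrophages that protects them from apoptosis, and it had the largest difference of the 10. Sham fl/fl arrays read 6.16, 7.05, 6.92 and 6.53, and PHx fl/fl arrays 5.53, 5.19, 5.28 and 6.32. Sham PparaΔHep arrays read 7.24, 6.48, 7.005 and 6.26, and PHx PparaΔHep arrays 6.02, 6.26, 5.33 and 4.86. PHx fl/fl array 4 lay above sham fl/fl array 1, and in PparaΔHep livers the highest PHx array almost reached the lowest sham array. Cd5l fell by 1.08 ± 0.33 in fl/fl (SE; limma adjusted p = 0.0200) and by 1.13 ± 0.33 in PparaΔHep livers (adjusted p = 0.0157). Its SD after PHx was 0.52 in fl/fl livers, the largest of the 10 genes there, and 0.64 in PparaΔHep livers, second to Marco. The fl/fl call was lost without array 2 or 3 of either fl/fl group (adjusted p up to 0.0602), and the PparaΔHep call without sham PparaΔHep array 1 (adjusted p = 0.0513) or PHx PparaΔHep array 4 (adjusted p = 0.0559). After cyclic loess the fl/fl difference of Cd5l was -0.91 and was not called either (adjusted p = 0.0501).

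Marco, a scavenger receptor that binds bacteria and particles, was the gene with differences above 0. It was steady on sham arrays, at 4.61 to 4.87 in fl/fl and 4.67 to 4.93 in PparaΔHep livers. After PHx it stood at 4.69, 5.46, 4.80 and 5.02 on fl/fl and at 4.93, 4.96, 6.09 and 4.41 on PparaΔHep arrays. PHx arrays thus lay on both sides of the sham range, and the SD grew from 0.11 to 0.34 in fl/fl and from 0.11 to 0.71 in PparaΔHep livers. Its differences of 0.22 ± 0.26 and 0.30 ± 0.26 were not called (limma adjusted p = 0.544 and 0.399). Without PHx PparaΔHep array 3, the difference in those livers was -0.03. PHx fl/fl array 2, the highest of its group for Marco, also had the highest mean over the 13 neutrophil markers, at 3.16 against 2.34 to 2.55 on the other PHx fl/fl arrays, and over the 12 cytokine genes, at 2.99 against 2.09 to 2.35. In PHx PparaΔHep livers the arrays did not fall in that order. Array 4, the lowest for Marco, had the highest neutrophil mean there (2.64, with 2.63 on array 3, the highest for Marco) and the highest cytokine mean (2.45, with 2.29 on array 3). The part of these genes in the Marco level was not tested.

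C1qa, C1qb and C1qc encode the chains of C1q, the recognition protein of the classical complement pathway, and lie next to each other on chromosome 4. C1qa stood at 5.27, 5.48, 5.54 and 5.17 on sham fl/fl and at 4.85, 5.17, 5.10 and 5.15 on PHx fl/fl arrays. It stood at 5.49, 5.17, 5.42 and 5.21 on sham PparaΔHep and at 4.89, 4.87, 5.05 and 5.13 on PHx PparaΔHep arrays. All PHx arrays lay below all sham arrays, although the gap was narrow and the share of all genes that separate so was not computed. C1qa fell by 0.30 ± 0.10 in fl/fl (SE; limma adjusted p = 0.0357) and by 0.34 ± 0.10 in PparaΔHep livers (adjusted p = 0.0191).

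C1qb ranged from 6.00 to 6.62 on sham and from 5.99 to 6.57 on PHx fl/fl arrays, and from 6.27 to 6.70 on sham and from 5.98 to 6.41 on PHx PparaΔHep arrays. On PHx fl/fl arrays it split into 2 high arrays (6.55 and 6.57) and 2 low arrays (5.99 and 6.02). Its differences of -0.08 ± 0.17 and -0.30 ± 0.17 were not called (limma adjusted p = 0.738 and 0.180). C1qc differed by -0.13 ± 0.13 in fl/fl (adjusted p = 0.449), and fell by 0.36 ± 0.13 in PparaΔHep livers (adjusted p = 0.0446).

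Calls of the C1q genes depended on the scaling. Under cyclic loess, the differences averaged over the genotypes were -0.14 for C1qa (adjusted p = 0.148) and -0.09 for C1qc (adjusted p = 0.434), and under quantile normalization they were -0.17 (adjusted p = 0.0735) and -0.13 (adjusted p = 0.233). The difference of C1qb was 0.00 under quantile normalization (adjusted p = 0.996), while subtracting array medians brought it to -0.43 in PparaΔHep livers (adjusted p = 0.0472). The fl/fl call of C1qa was also lost without sham array 2 or 3 or PHx array 1 or 3 of that genotype (adjusted p up to 0.114) and with only the groups compared in the fit (adjusted p = 0.0565). Its PparaΔHep call was lost without sham PparaΔHep array 1 or 3 or PHx PparaΔHep array 2 (adjusted p up to 0.0621). The C1qc call was kept in 7 of the 16 fits that each left out 1 array, those without array 2 of sham PparaΔHep, 3 of PHx PparaΔHep, 1 or 3 of PHx fl/fl, or 1, 2 or 3 of sham fl/fl, with adjusted p up to 0.124 in the others.

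**Figure D2:**
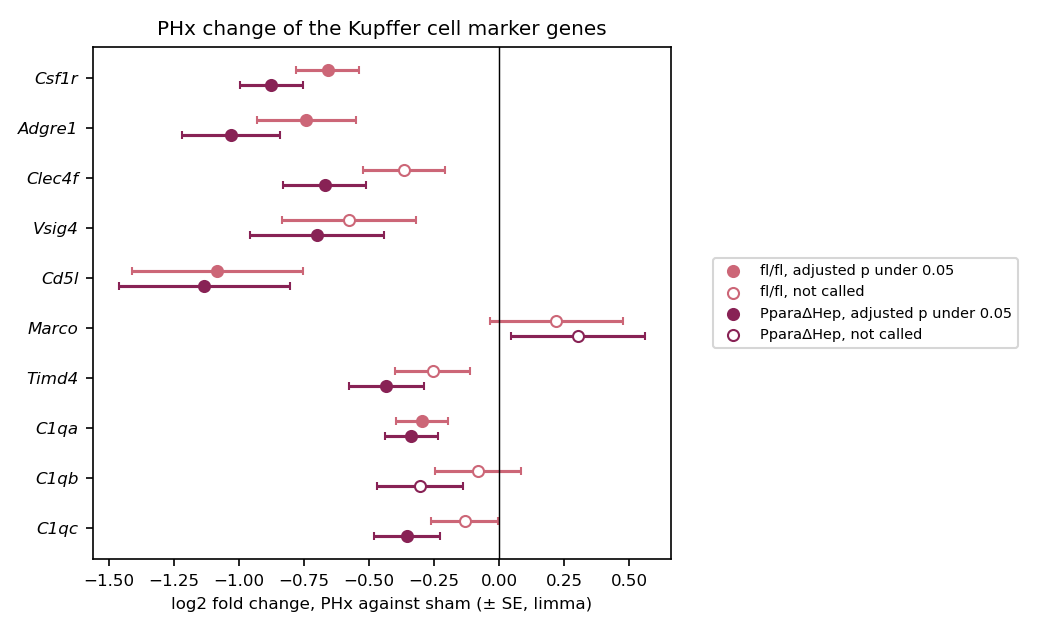
Log2 difference between PHx and sham (x axis, ± SE from limma) of each gene in fl/fl (upper point of each pair) and PparaΔHep livers (lower point); filled points passed adjusted p under 0.05. Of the 20 points, 12 are filled, and all of those lie below 0.

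**Figure D3:**
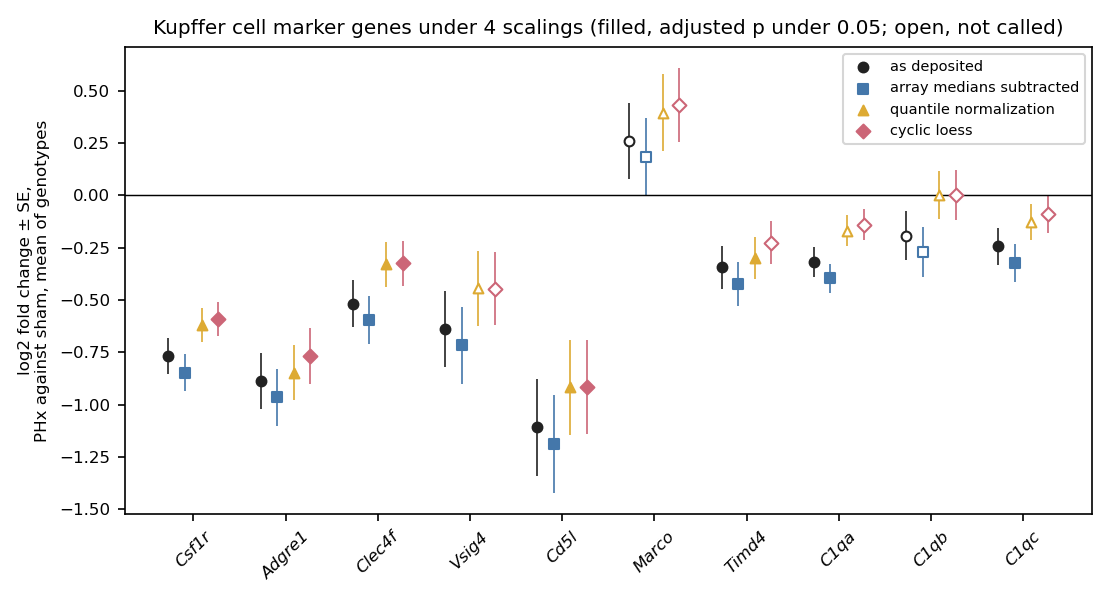
Log2 difference between PHx and sham averaged over the genotypes (y axis, ± SE from limma) of each gene (x axis) on the deposited values and under 3 other scalings; filled points passed adjusted p under 0.05. Csf1r, Adgre1, Clec4f and Cd5l are filled under all 4, and the C1q genes are open after quantile normalization and cyclic loess.

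The size of the difference was then compared between genes. Each of the 45 pairs was tested with a two-sided exact permutation test of the difference between both genes on each array, in which sham and PHx labels were exchanged within each genotype (4900 permutations, smallest possible p 4.08e-04). P-values were adjusted over the 45 pairs, of which 25 passed. The test covers the spread among arrays only. Whether the probe sets of 2 genes respond equally to the same change in RNA was not tested, so a gap is one between measured differences. A gap between 2 genes on the same array does not change with a shift shared by that array, so subtracting array medians leaves it as it was. Under quantile normalization and cyclic loess, which can change it, 25 to 27 pairs passed.

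In the measured difference Csf1r and Adgre1 stood apart from the C1q genes. The difference of Csf1r was 0.45 below that of C1qa, 0.57 below that of C1qb and 0.52 below that of C1qc (adjusted p = 0.00153 for each, exact permutation test). The difference of Adgre1 was 0.57, 0.69 and 0.64 below theirs (adjusted p up to 0.00490, exact). These 6 gaps had the same sign in both genotypes. They kept their calls under quantile normalization, under cyclic loess and in each of the 16 fits without 1 array. The gap between Csf1r and Adgre1 themselves was 0.12 and was not called on the deposited values (adjusted p = 0.128, exact permutation test). It passed under quantile normalization, at 0.23 (adjusted p = 0.0228), and without sham fl/fl array 1, at 0.16 (adjusted p = 0.0466).

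The secreted protein gene Cd5l had a difference 0.47 below that of Vsig4 and 0.59 below that of Clec4f (adjusted p = 0.00574 and 0.00756, exact permutation test). Marco differed from 8 of the other 9 genes, by 0.50 from C1qc up to 1.37 from Cd5l. Its gap of 0.45 to C1qb was not called (adjusted p = 0.0509, exact permutation test), while it passed without array 1 of sham fl/fl, 3 of PHx fl/fl or 4 of PHx PparaΔHep (adjusted p of 0.0140 to 0.0235). The gap of Marco to C1qc did not pass without array 2 of either fl/fl group, array 1 of sham PparaΔHep or array 3 of PHx PparaΔHep (adjusted p of 0.0544 to 0.0673). Among themselves the C1q genes had gaps of 0.05 to 0.12 with adjusted p of 0.230 to 0.499 (exact), which does not show that they changed alike. The pair of Clec4f and C1qc lay at the threshold, at 0.27 (adjusted p = 0.04996), and did not pass after quantile normalization, after cyclic loess or in 13 of the 16 fits without 1 array (adjusted p of 0.0544 to 0.124).

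**Figure D4:**
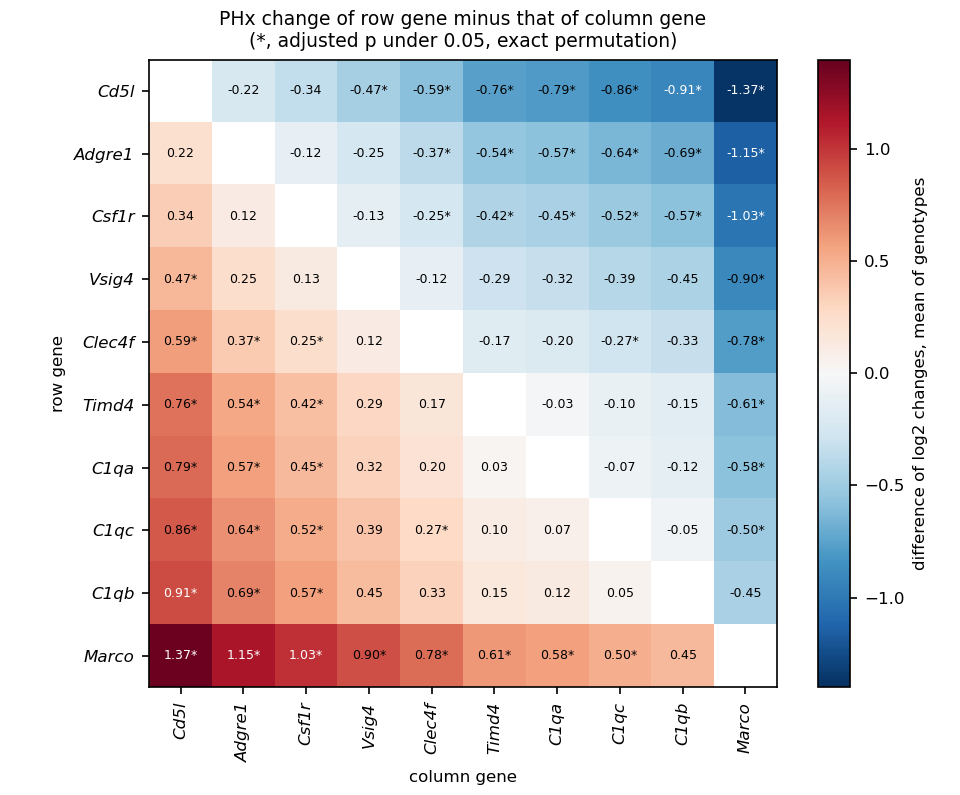
Difference between PHx and sham of the row gene minus that of the column gene (colour and number, log2, mean of both genotypes), with genes ordered by their own difference; stars mark adjusted p under 0.05 over 45 pairs by the exact permutation test. Cd5l, Adgre1 and Csf1r are starred against Timd4 and all 3 C1q genes, and Marco is starred against 8 of 9 genes.

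The comparison of genotypes asked whether these markers differ where hepatocytes lack PPARα. After sham 0 of the 10 were called in limma, where 0.0133% of all genes were. After PHx 0 of the 10 were called, where 0.143% of all genes were. At an unadjusted p under 0.05 the count was 0 in both, but the share of all genes at that threshold was not computed, so this count has no background. Differences of PparaΔHep against fl/fl ran from -0.04 ± 0.10 (C1qa) to 0.19 ± 0.14 (Timd4) after sham and from -0.12 ± 0.16 (Clec4f) to 0.11 ± 0.26 (Marco) after PHx (SE, n = 4 against 4). For all 10 genes the arrays of both genotypes overlapped after each operation, while no overlap was seen for 4.43% of all genes with PparaΔHep lower and 2.38% with it higher after sham, and for 1.31% and 2.41% after PHx. Averaged over the operations, 0 of the 10 were called, where 0.219% of all genes were, and the differences ran from -0.06 ± 0.07 (C1qa) to 0.10 ± 0.10 (Timd4).

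More markers passed in PparaΔHep than in fl/fl livers, so each was tested for a PHx change that differed by genotype. That difference was called for 0 of the 10 in limma and for 0 of all 30142 genes. At an unadjusted p under 0.05 it was 0 of the 10, with the share of all genes again not computed. It was -0.22 ± 0.17 for Csf1r, -0.29 ± 0.27 for Adgre1 and -0.30 ± 0.23 for Clec4f (SE; adjusted p = 0.680, 0.732 and 0.650). For Vsig4 it was -0.12 ± 0.36, for Cd5l -0.05 ± 0.46 and for Marco 0.08 ± 0.36. For Timd4 it was -0.18 ± 0.20, and for C1qa, C1qb and C1qc it was -0.04 ± 0.14, -0.22 ± 0.23 and -0.22 ± 0.18. With errors of this size relative to the PHx changes, these data show neither a difference between the genotypes nor its absence.

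Within a group the markers tended to be high or low on the same arrays. Sham fl/fl array 1 was the lowest of its group for 8 of the 10 genes and array 2 the highest for 8, and the mean of the 10 genes was 5.13, 5.67, 5.59 and 5.27 on arrays 1 to 4. Sham PparaΔHep array 1 was the highest for 8 genes, and the mean there was 5.77, 5.34, 5.68 and 5.31. PHx fl/fl array 1 and PHx PparaΔHep array 4 were each the lowest for 7, with means of 4.84 and 4.70. The mean of 13 hepatocyte markers on sham arrays lay within 10.17 to 10.28, and that of 13 sinusoidal endothelial markers within 5.29 to 5.43, so neither spread as widely as the Kupffer cell markers did. The mean of 22 general macrophage and myeloid genes ran from 4.19 to 4.64 on sham arrays, and its lowest and highest arrays were the same ones. From the lowest to the highest of the 8 sham arrays, across both genotypes, the mean of the 10 genes spanned 0.64. That span was 0.35 for 13 neutrophil genes, 0.26 for 11 stellate cell genes and 0.25 for 12 complement genes, which include the C1q genes. It was 0.28 for the 14 other Kupffer cell signature genes and 0.24 for 18 clearance receptors, so the wide span was not shared by all lists of Kupffer cell genes. The stellate mean was 4.79, 4.53, 4.73 and 4.55 on sham PparaΔHep arrays 1 to 4. Arrays 1 and 3 were thus high there too, so that order was not confined to macrophage genes.

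**Figure D5:**
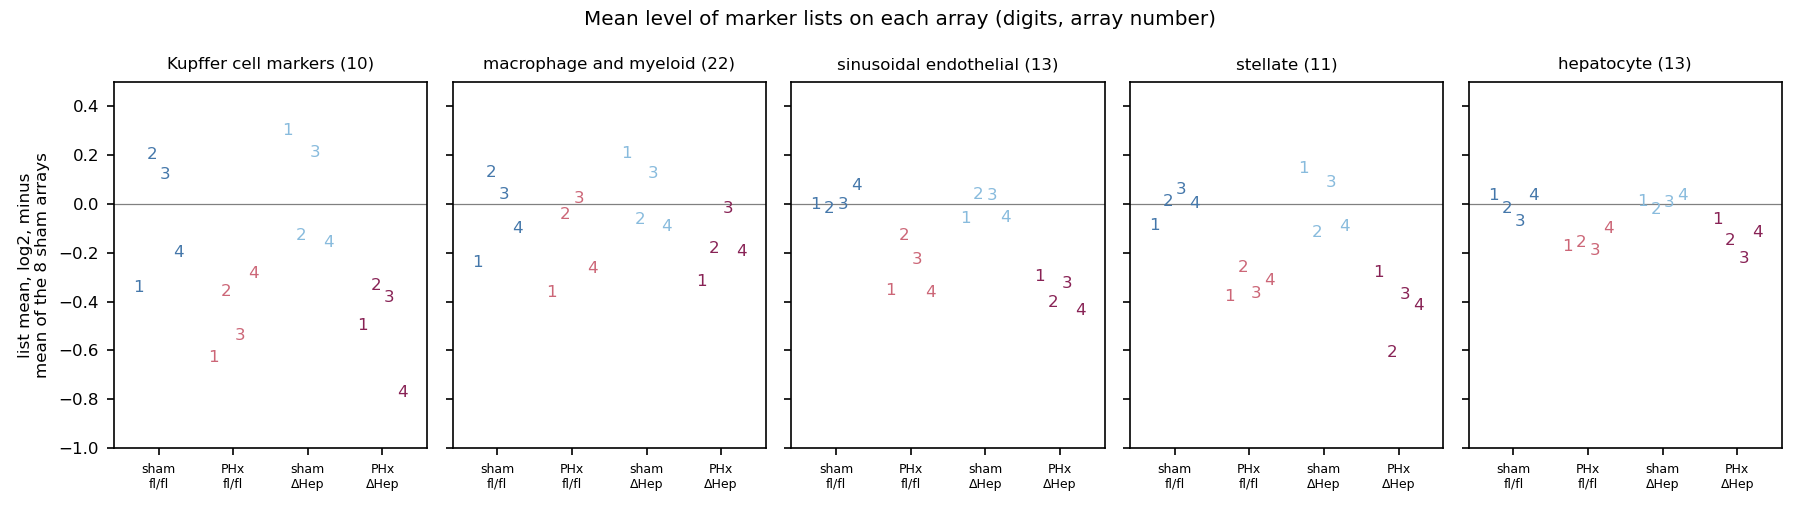
Mean level of 5 marker lists on each array (y axis, log2, minus the mean of the 8 sham arrays; digits are array numbers) by group (x axis, ΔHep stands for PparaΔHep). The Kupffer cell markers and the macrophage genes spread over the sham arrays, with arrays 2 and 3 of fl/fl and 1 and 3 of PparaΔHep high, while the endothelial and hepatocyte lists stay close together. In the stellate list, arrays 1 and 3 of PparaΔHep are high as well.

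Other genes of the same biology were counted in lists of genes with a known role. The shares called among genes with a mean level of at least 3.5 stand as their background, 35.7% lower and 7.18% higher in fl/fl and 37.1% lower and 7.01% higher in PparaΔHep livers, and for lists with a mean level under 3.5 those of all named genes, given above. Of the list genes that are not among the 10, 67 were called in fl/fl and 57 in PparaΔHep livers, and 32 and 17 of these calls were lost under at least 1 of the 3 other scalings. The sign of a called difference turned for 1 of them, Serping1, under quantile normalization. Of 14 further Kupffer cell signature genes, 4 fell and 1 rose in fl/fl and 6 fell and 1 rose in PparaΔHep livers, with list medians of -0.22 and -0.48. That is 28.6% and 42.9% lower, near the background in both genotypes. The mannose receptor gene Mrc1 differed by -0.63 ± 0.11 in fl/fl and -0.84 ± 0.11 in PparaΔHep livers (SE; limma adjusted p = 6.48e-04 and 4.39e-05). Clec1b, which encodes a lectin receptor of platelets and myeloid cells, fell by 0.38 ± 0.12 and by 0.76 ± 0.12 in the same order. Il18bp, a decoy that binds interleukin-18, fell by 0.37 ± 0.09 and by 0.59 ± 0.09, and the properdin gene Cfp by 0.25 ± 0.09 and by 0.53 ± 0.09. The fl/fl calls of Clec1b, Il18bp and Cfp were lost under at least 1 other scaling. The gene that rose in fl/fl was Cd163, the haemoglobin scavenger receptor, by 0.39 ± 0.14 (adjusted p = 0.0421), with 0.18 ± 0.14 in PparaΔHep livers. In PparaΔHep livers it was the lectin gene Cd209f, by 0.21 ± 0.07 (adjusted p = 0.0272). Both calls were lost under at least 1 other scaling.

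Of 22 general macrophage and myeloid genes, 9 fell and 2 rose in fl/fl, and 11 fell and 1 rose in PparaΔHep livers, with medians of -0.20 and -0.30. The share called lower in fl/fl, 40.9%, was near the background, and the 11 of 22 in PparaΔHep livers lay above it. Mpeg1, a pore-forming protein of phagocytes, had the largest fall of this list, with -1.09 ± 0.21 in fl/fl and -1.31 ± 0.21 in PparaΔHep livers. The lysozyme gene Lyz2 differed by -0.95 ± 0.22 and -1.14 ± 0.22 (limma adjusted p up to 0.0041 for both genes). The signalling adaptor gene Tyrobp fell by 0.68 ± 0.23 and by 0.83 ± 0.23, and its fl/fl call was lost under 1 other scaling. Cd14, the co-receptor for bacterial lipopolysaccharide, which hepatocytes can also express, rose by 1.86 ± 0.63 in fl/fl (adjusted p = 0.0346), and its difference in PparaΔHep livers was 1.69 ± 0.63 (adjusted p = 0.0527). Its PHx arrays spread widely, at 4.50, 5.53, 6.70 and 3.57 in fl/fl, against 2.85 to 3.51 after sham. In PparaΔHep livers they stood at 3.61, 4.26, 6.55 and 6.10, against 3.34 to 3.55 after sham. The integrin gene Itgam rose by 0.38 ± 0.12 and 0.33 ± 0.12, and the latter call was lost under 2 other scalings.

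Of 9 measured transcription factor genes of macrophages, 4 fell and 1 rose in fl/fl and 3 fell and 1 rose in PparaΔHep livers, with medians of 0.07 and -0.08. The shares called lower, 44.4% and 33.3%, lay on both sides of the background. Nr1h3, which encodes the nuclear receptor LXRα, differed by -0.46 ± 0.16 and -0.71 ± 0.16 (limma adjusted p = 0.0345 and 0.0032), and Maf by -0.25 ± 0.08 and -0.49 ± 0.08. The fl/fl calls of Nr1h3 and Maf were lost under 2 other scalings. Cebpa differed by -1.33 ± 0.24 and -1.53 ± 0.24, and Id1, a target of BMP signalling, rose by 0.70 ± 0.11 and 0.69 ± 0.11. Hepatocytes also express Cebpa and Nr1h3. Of 12 genes of the CSF1 axis and the Kupffer cell niche, which include Csf1r, 5 fell and 1 rose in fl/fl and 2 fell in PparaΔHep livers, or 41.7% and 16.7% lower. The ligand gene Csf1 differed by -0.34 ± 0.08 and -0.29 ± 0.08 (adjusted p = 0.0048 and 0.0105), and both calls were lost under 1 other scaling. The Notch ligand gene Dll4 fell by 0.42 ± 0.07 in fl/fl, with -0.17 ± 0.07 in PparaΔHep livers (adjusted p = 0.0855). Bmp10, a BMP ligand, rose by 0.88 ± 0.25 in fl/fl (adjusted p = 0.0163), and its difference in PparaΔHep livers was 0.61 ± 0.25 (adjusted p = 0.0782).

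Partners of C1q in complement and clearance were counted next. Of 12 complement genes, which include C1qa, C1qb and C1qc themselves, 7 fell and 1 rose in fl/fl and 8 fell and 1 rose in PparaΔHep livers, with medians of -0.29 and -0.35. The shares called lower were 58.3% and 66.7%, against 35.7% and 37.1% for the background. C1ra, a protease that C1q activates, differed by -0.46 ± 0.06 in fl/fl and -0.65 ± 0.06 in PparaΔHep livers (SE; limma adjusted p = 8.66e-05 and 1.91e-06). C2 and C4b are the next components of the pathway. C2 differed by -0.84 ± 0.13 and -0.96 ± 0.13, and C4b by -0.63 ± 0.11 and -0.68 ± 0.11, all called lower. Hepatocytes are a main source of these 3 proteins. The gene that rose was C1qbp, a mitochondrial protein that binds C1q, in fl/fl (0.19 ± 0.07, adjusted p = 0.0356) and C5ar1, the receptor for C5a, in PparaΔHep livers (0.24 ± 0.09, adjusted p = 0.0475). Both calls were lost under at least 1 other scaling.

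Of 18 phagocytosis and clearance receptors, which include Vsig4, Timd4 and Marco, 5 fell and 2 rose in fl/fl and 11 fell and 1 rose in PparaΔHep livers, with medians of -0.20 and -0.33. The shares called lower were 27.8%, below the background, in fl/fl and 61.1%, above it, in PparaΔHep livers. Most genes of this list are also counted in the myeloid, Kupffer cell signature, endothelial or complement lists. Of those called lower in PparaΔHep livers, only Cd36 is neither a Kupffer cell marker examined here nor in another list. The shares of this list are therefore largely a recount and not a separate result. Cd163 and Itgam were those that rose in fl/fl, and Itgam rose in PparaΔHep livers. The inhibitory Fc receptor gene Fcgr2b differed by -0.99 ± 0.16 and -1.11 ± 0.16, and the endocytic receptor gene Lrp1 by -0.67 ± 0.12 and -0.83 ± 0.12 (limma adjusted p up to 7.30e-04). The scavenger receptor gene Cd36 differed by -0.16 ± 0.25 in fl/fl and fell by 0.76 ± 0.25 in PparaΔHep livers (adjusted p = 0.0277), a call lost under 2 other scalings.

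Markers of other liver cells were counted too. Of 13 sinusoidal endothelial genes, 8 fell (61.5%) and 1 rose in each genotype, and the list mean was 5.29 to 5.43 on sham and 4.92 to 5.22 on PHx arrays. The lectin gene Clec4g differed by -1.14 ± 0.17 and -1.16 ± 0.17 and the VEGF receptor gene Kdr by -1.02 ± 0.20 and -1.31 ± 0.20, while the hyaluronan receptor gene Lyve1 rose by 1.36 ± 0.49 and 1.67 ± 0.49 (limma adjusted p up to 0.0428). The rise of Lyve1 was uneven. It stood at 6.23, 7.64, 7.62 and 5.63 on PHx fl/fl arrays, against 5.06 to 5.96 after sham. On PHx PparaΔHep arrays it stood at 5.97, 6.21, 8.04 and 7.71, against 5.14 to 5.57 after sham. Of 11 stellate cell genes, 6 fell in fl/fl (54.5%) and 5 in PparaΔHep livers (45.5%) and 0 rose, and Lrat, the enzyme that stores vitamin A as esters, fell by 1.10 ± 0.28 and by 1.82 ± 0.28. Of 13 hepatocyte genes, 4 fell and 0 rose in each genotype (30.8% lower, under the background), among them the prothrombin gene F2, by 0.47 ± 0.06 and by 0.57 ± 0.06, and the hepatocyte list mean was 10.17 to 10.28 on sham and 10.02 to 10.18 on PHx arrays. More genes fell than rose among all genes with a mean level of at least 3.5 as well. The part of these cell types in the levels of the Kupffer cell markers was not tested.

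Markers of blood-borne cells were counted as well. The mean of 10 monocyte genes was 2.95 to 3.06 on sham and 3.03 to 3.22 on PHx arrays. Ly6c1, a surface antigen of monocytes and of endothelial cells, rose by 0.46 ± 0.13 and 0.47 ± 0.13 (limma adjusted p = 0.0164 and 0.0154) and was the 1 monocyte gene called in fl/fl livers. In PparaΔHep livers Spn (0.35 ± 0.06) and F13a1 (0.22 ± 0.07) rose as well and Plac8 fell by 0.30 ± 0.10, and the call of F13a1 was lost under all 3 other scalings. The mean of 13 neutrophil genes was 2.40 to 2.75 on sham and 2.34 to 3.16 on PHx arrays. The chemokine receptor gene Cxcr2 rose by 0.16 ± 0.05 and 0.27 ± 0.05, the fl/fl call being lost under 2 other scalings, and in fl/fl livers Mmp9 fell by 0.19 ± 0.06, a call lost under 1 other scaling, and Mpo fell by 0.16 ± 0.04. Of 12 cytokine genes of Kupffer cells, 2 fell in fl/fl (Il18, by 0.40 ± 0.14, and Osm, by 0.35 ± 0.10), and 1 rose in PparaΔHep livers (the chemokine gene Ccl4, by 0.14 ± 0.04). The calls of Il18 and Ccl4 were lost under other scalings. The lists of T and NK cells, B cells and cholangiocytes had means of 1.89 to 2.06, 2.12 to 2.43 and 2.49 to 2.98 over the 16 arrays. In fl/fl livers 3 of 9, 4 of 6 and 2 of 6 of their genes fell and 0 rose, where 20.8% of all named genes fell, and the calls of Cd3d, Cd79a, Cd22 and Cldn7 among them were each lost under 1 other scaling. In PparaΔHep livers 0 of these fell and 1 gene, Ncr1 of the T and NK cell list, rose, a call lost under all 3 other scalings. Several genes of these lists lay near the antigenomic background, which itself was 1.24 on sham and 1.01 on PHx arrays. Ccl4, Ncr1 and F13a1, for example, had mean levels of 1.66, 1.82 and 1.89. Whether small differences at such levels reflect cells was not tested.

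Genes that followed the 10 markers most closely over the arrays were then listed. Each of the 5650 other named genes with a mean level of at least 5 was centred over the 16 arrays and set against the centred mean of the 10 markers, whose SD over the arrays was 0.31. The smallest root mean square differences on the log2 scale were 0.11 for Sdc3, 0.14 for Fcna, 0.14 for Septin9, 0.14 for Itga5 and 0.14 for Ecpas. Among the 10 markers themselves that difference was 0.10 for Clec4f, 0.13 for Timd4 and 0.16 for Csf1r, and it was 0.45 for Cd5l and 0.49 for Marco. Each marker is itself part of the mean it was set against, which makes its difference smaller. Markers and other genes can therefore not be ranked together by it. Sdc3, a cell-surface proteoglycan gene, had mean levels of 5.40 in sham fl/fl, 5.05 in PHx fl/fl, 5.55 in sham PparaΔHep and 5.06 in PHx PparaΔHep livers. Fcna, which encodes the macrophage lectin ficolin A and is also in the list of Kupffer cell signature genes, had mean levels of 5.62, 5.43, 5.81 and 5.37 in the same order. These are descriptions over 16 arrays that share the operations and the genotypes.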

How the data were processed

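Per the submitters' processing notes, the authors made the deposited log2 values with RMA, a method of background correction, normalization and probe summary. Neither its software version nor a genome build is given in the sources used here. Of 72688 probe sets, 30604 have 1 symbol in the platform annotation, 2146 have several and 39938 are unnamed here, and the highest probe set of a gene by mean was kept, which left 30142 genes. Spi1, for example, is not among them and is not analysed here. RefSeq updated 827 symbols.

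Tests across genes used limma 3.58.1 under R 4.3.3 (lmFit with 1 mean per group, 16 arrays, 12 residual degrees of freedom, eBayes defaults), on the values as deposited, with Benjamini-Hochberg adjustment over all genes and a threshold of 0.05, for 7 comparisons. The script was tested on simulated data. Pairs of genes were compared by the exact permutation test. Alternatives were 3 scalings, a level filter of 4, the mean of a gene's probe sets, another variance model, array weights, the compared groups alone, protein-coding genes alone, and each array left out. The 10 genes, the lists and the tests were chosen with earlier results of these data known. Of each list, at most the 4 genes with the largest mean PHx difference among those called were named, and others where a count of 5 or fewer needed them. Itgam was named after its values were seen. For arrays, their number limits the precision. Array numbers follow the order of the samples and pair nothing.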

Additional observations from a re-analysis of the deposited data

How the results depend on the processing

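No paired analysis was possible because the numbers in the array titles differ for all 16 arrays, so that the groups share none. Of the counts of called markers, those for the genotype comparisons and for the difference between genotypes were 0 under every alternative and with any array left out. The fl/fl count of 4 was 2 after cyclic loess and 2 to 5 with 1 array left out. The PparaΔHep count of 8 was 5 after quantile normalization, 4 after cyclic loess and 3 to 8 with 1 array left out. The count of 8 averaged over genotypes was 5 after quantile normalization, 4 after cyclic loess and 7 to 8 with 1 array left out. The median PHx difference of the 10 genes ran from -0.16 to -0.36 in fl/fl, from -0.40 to -0.68 in PparaΔHep livers and from -0.28 to -0.51 averaged over genotypes across the 4 scalings. The cause was not tested. The count of 25 pairs was 25 to 27 under quantile normalization and cyclic loess and 23 to 32 with 1 array left out. No called difference of a marker turned its sign. Subtracting array medians, taken over the named genes, moved the median PHx difference of all genes in PparaΔHep livers from 0.01 to -0.12, and the share of calls that were higher from 45.8% to 16.5% there and from 42.1% to 21.1% averaged over genotypes. Cyclic loess moved that share in fl/fl livers from 36.5% to 56.7%. Among the 9294 genes with a mean level of at least 4, 4015 were called in fl/fl and 4380 in PparaΔHep livers. Of all 30142 genes 9868 and 9734 were called, a smaller share. Of the calls in the filtered fit 16.2% and 14.1% were higher, against 36.5% and 45.8% over all genes. Adgre1 and Timd4 have mean levels under 4 and were not in that fit. The alternative of protein-coding genes alone and those of the pair test were added after seeing the data.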
